A study of Canis lupus familiaris with 77 samples.

Results

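The miRNAs described here are both mature arms of miR-223, a miRNA known for its expression in granulocytes, monocytes and other cells of the myeloid lineage. They were the 2 rows, of 650 miRNAs with at least 1 read, whose names begin with cfa-miR-223 (the 3p arm; the deposited name also joins the rat and human miR-223-3p entries) and hsa-miR-223-5p (the 5p arm, which carries a human name only). The values are miR-seq read counts from 5 untreated male Beagle dogs, 10 months old by the study's methods, whose organs were perfused before collection. Libraries of different tissues therefore share dogs. The 76 libraries used cover liver, heart, testis, lung, skeletal muscle, kidney, thymus, brain, duodenum, jejunum, ileum, pancreas, plasma and bone marrow with 5 samples each, colon with 4 and sciatic nerve with 2. The study describes the sciatic nerve RNA both as single samples and as a pool, so whether its 2 libraries come from separate dogs is not settled. Replicate numbers follow the order of the samples and name libraries only. Bone marrow and plasma RNA were extracted by other protocols than the solid tissues according to the methods, although the labels name 1 preparation type for all samples, so extraction and tissue cannot be told apart for these 2 sample types.

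A miRNA is cut from a hairpin precursor, and either strand of the resulting duplex can be loaded into an Argonaute protein, which it guides to messenger RNAs with a matching seed. For miR-223 the 3p strand is the one usually described as the guide and the 5p strand as the passenger. The miRNA is switched on as myeloid progenitors become granulocytes, where it tempers their production and activation, and it is also plentiful in platelets. In RefSeq's annotation of the dog assembly UU_Cfam_GSD_1.0, which differs from the assembly used for alignment, the entry MIR223 lies on chromosome X within the span of VSIG4, a complement receptor gene of tissue macrophages, between the genes MSN and HEPH.

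The libraries held 157871 to 7896424 miRNA reads, so that 1 read was worth 0.127 to 6.33 RPM (parts per 1000000 of a library's miRNA reads). The bone marrow libraries were among the shallow ones with 162310 to 239023 reads. The study's supplement reports low RNA integrity for plasma. For bone marrow it reports a lower percentage of mapped reads, which went with low RNA integrity. The part of RNA integrity in the values given here was not tested. The tissue labels were checked against miRNAs known for 1 organ. By the tissue median, cfa-miR-124 was highest in brain at 2971 RPM, cfa-miR-122 in liver at 22008 RPM, cfa-miR-208b in heart at 3829 RPM, cfa-miR-206 in skeletal muscle at 276 RPM, cfa-miR-217 in pancreas at 3543 RPM and cfa-miR-202 in testis at 3340 RPM. The thymus libraries stood apart from each other. Summed over the leukocyte list described below, thymus replicates 1 and 4 held 23702 and 23713 RPM, and replicates 2, 3 and 5 held 1425 to 2563 RPM. The duodenum libraries split as well. By the same sum, duodenum replicates 1 and 2 held 13261 and 15175.5 RPM, and replicates 3 to 5 held 1393 to 5788.5 RPM.

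Both arms were highest in bone marrow, the site where myeloid cells are made. The 3p arm measured 5871, 3677, 3686, 5062 and 2727 RPM in the 5 bone marrow libraries, from 593 to 957 reads each. It ranked between 25 and 29 among all miRNAs of those libraries. The 5p arm measured 141.7, 79.5, 141, 201 and 78.2 RPM, from only 17 to 38 reads each. Every bone marrow library lay above every library of the 15 other tissues for both arms. This was so for 6 of the 650 miRNAs (0.923%), the others being cfa-miR-8865, cfa-miR-374b, hsa-miR-424-5p and cfa-miR-374a.

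**Figure D1:**
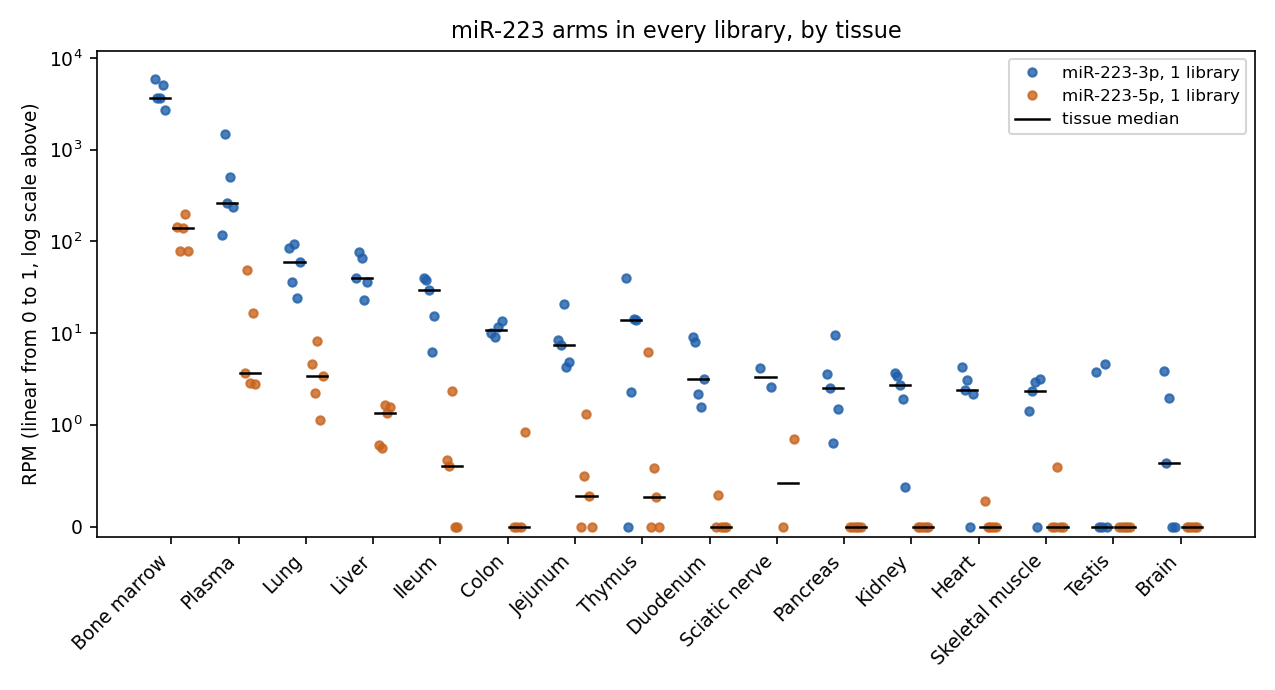
Level of both arms of miR-223 in each library, in RPM on an axis that is linear from 0 to 1 and logarithmic above; each point is 1 library, the black lines are tissue medians, and tissues are in the order of the 3p arm. The 5 bone marrow libraries sit between 2727 and 5871 RPM for the 3p arm and between 78.2 and 201 RPM for the 5p arm, above all other libraries.

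Plasma came next for both arms and varied widely. The 3p arm measured 116, 1501, 259, 507 and 236 RPM in plasma replicates 1 to 5, and the 5p arm 3.64, 48.7, 2.88, 16.6 and 2.77 RPM. Plasma replicate 2 was the highest for both arms and replicate 4 the next. The highest plasma value exceeded the lowest 12.9-fold for the 3p arm and 17.6-fold for the 5p arm, against 2.15-fold and 2.57-fold in bone marrow. On the log2(RPM + 1) scale, the SD between plasma samples was 1.39 for the 3p arm, and 5 of the 50 miRNAs within 3-fold of its mean level in plasma had a larger SD.

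Outside bone marrow and plasma no tissue median of either arm reached 100 RPM, and the 5p arm passed that level in bone marrow alone. The lung libraries held 83.7, 35.7, 93.6, 23.9 and 60.0 RPM of the 3p arm, and the liver libraries 39.5, 75.9, 65.1, 22.7 and 36.3 RPM. Lung and liver thus overlapped. Down the gut, the 3p mean was 4.80 ± 3.49 RPM in duodenum, 9.17 ± 6.81 RPM in jejunum, 25.6 ± 14.5 RPM in ileum (SD, n = 5 each) and 11.0 ± 1.92 RPM in colon (SD, n = 4). Duodenum replicates 1 and 2, with the higher leukocyte sums, held 9.03 and 8.08 RPM, and replicates 3 to 5 held 1.56 to 3.15 RPM. Thymus, where T cells mature, held 40.0, 0, 2.28, 14.3 and 13.8 RPM, so that its spread covered most of the lower range. The means of sciatic nerve, pancreas, kidney, heart, skeletal muscle, testis and brain lay between 1.28 and 3.60 RPM, on 2 to 44 reads a tissue. Testis gave 2 reads of the 3p arm in its 5 libraries together, and brain 9.

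The order of the tissues by mean log2 level of the 3p arm was bone marrow, plasma, lung, liver, ileum, colon, jejunum, thymus, duodenum, sciatic nerve, pancreas, kidney, heart, skeletal muscle, testis and brain. Neighbours in this order were compared by a two-sided exact permutation test, which cannot go below p = 0.00794 with 5 samples against 5. Bone marrow over plasma (a log2 difference of 3.52) and plasma over lung (2.72) each reached that smallest p without overlap, but neither passed after adjustment over the 15 pairs (both adjusted p = 0.0595, exact permutation test). From lung downward every neighbouring pair overlapped, with adjusted p of 0.595 or more by the exact permutation test. For the 5p arm, bone marrow over plasma (3.75) again reached p = 0.00794 and an adjusted p of 0.119 in the exact permutation test, and plasma and lung overlapped (adjusted p = 1 in the exact permutation test).

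The enrichment of each tissue was then measured against all other samples together, as the ratio of means with a two-sided exact rank-sum test adjusted by Benjamini-Hochberg over all miRNAs of a tissue. A miRNA was called tissue enriched with a ratio above 5 and an adjusted p under 0.05. In bone marrow, the 3p arm was 84.3-fold and the 5p arm 78.4-fold above the mean of all other samples (adjusted p = 7.8e-06 for each, exact rank-sum test). Without plasma replicate 2 among the other samples the ratios were 144.2 and 133.2, and without any bone marrow or plasma library there they were 301 and 204. Both arms were called there, against 3.08% of all miRNAs (20 of 650). The median-over-maximum ratio, the bone marrow median over the highest single value elsewhere, was 2.46 for the 3p arm and 2.89 for the 5p arm. That highest value was plasma replicate 2 in both cases. With plasma left out of the other tissues the ratios were 39.4 and 17.1.

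Plasma and lung were not called enriched for either arm on this measure, because their mean ratios stayed below 5, and the 3p arm in lung did not pass the test either. The plasma ratio was 1.70 for the 3p arm (adjusted p = 0.00164, exact rank-sum test) and 1.55 for the 5p arm (adjusted p = 0.00336, exact rank-sum test), and 4.31% of miRNAs were called in plasma. In lung the ratios were 0.174 for the 3p arm (adjusted p = 0.126, exact rank-sum test) and 0.378 for the 5p arm (adjusted p = 0.0355, exact rank-sum test). Of all miRNAs, 0.923% were called in lung. The 5p arm in lung did not pass with DESeq2 size factors (adjusted p = 0.0968, exact rank-sum test). Nor did it pass with any 1 lung library left out (adjusted p from 0.0627 to 0.105, exact rank-sum test). With every library thinned to the size of the smallest, the 5p arm passed in neither lung nor plasma. The adjusted p in plasma was then 0.103 (exact rank-sum test). The ratios over all other samples have the bone marrow libraries in their denominator. With bone marrow and plasma left out of the other samples, plasma was 37.5-fold higher for the 3p arm and 23.7-fold higher for the 5p arm. Lung was then 5.80-fold and 11.0-fold higher. The adjusted p of these 4 was 0.00468 or less by the exact rank-sum test. The shares of miRNAs called given above belong to the comparison with all other samples and not to this setting. Without plasma replicate 2 the plasma ratios over all other samples fell below 1, to 0.905 and 0.674.

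A count model fitted to all 76 libraries (edgeR's quasi-likelihood test with TMM scaling, 480 miRNAs tested) compared bone marrow with the mean of the 15 other tissues. The 3p arm was higher by a log2 fold change of 8.49 (SE 0.30, adjusted p = 2.2e-36). The 5p arm was called higher too (adjusted p = 2.4e-26). Its fitted log2 fold change, 7.61, depends on the prior count, because 4 of the other tissues had no 5p read. Without bone marrow replicate 5 the fitted values were 9.10 and 8.25. In this comparison 16.5% of miRNAs were called higher in bone marrow and 24.6% lower.

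Against each other tissue in turn, both arms were called higher in bone marrow in 15 of 15 comparisons with edgeR, which 9 of the 480 miRNAs were (1.88%). For the 3p arm the log2 fold change was smallest against plasma at 2.10 (SE 0.53), followed by liver at 5.81 (SE 0.63) and lung at 5.97 (SE 0.64). For the 5p arm it was 2.14 (SE 0.54) against plasma, 4.73 (SE 0.60) against lung and 6.14 (SE 0.69) against liver. Where the reads of a tissue were few, the size of the difference was taken from the reads directly. The 5p arm had no read in brain, kidney, pancreas or testis, and against 3 reads over the group it was at least 419-fold, 864-fold, 358-fold and 131-fold lower there than the bone marrow mean. The 2 testis reads of the 3p arm put the pooled bone marrow rate 6290-fold above testis, with a 95% exact interval from 1740-fold to 51954-fold that covers counting error only. Testis replicate 3, the deepest, had no such read, and without it the pooled ratio was 2141 (592 to 17686).

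**Figure D2:**
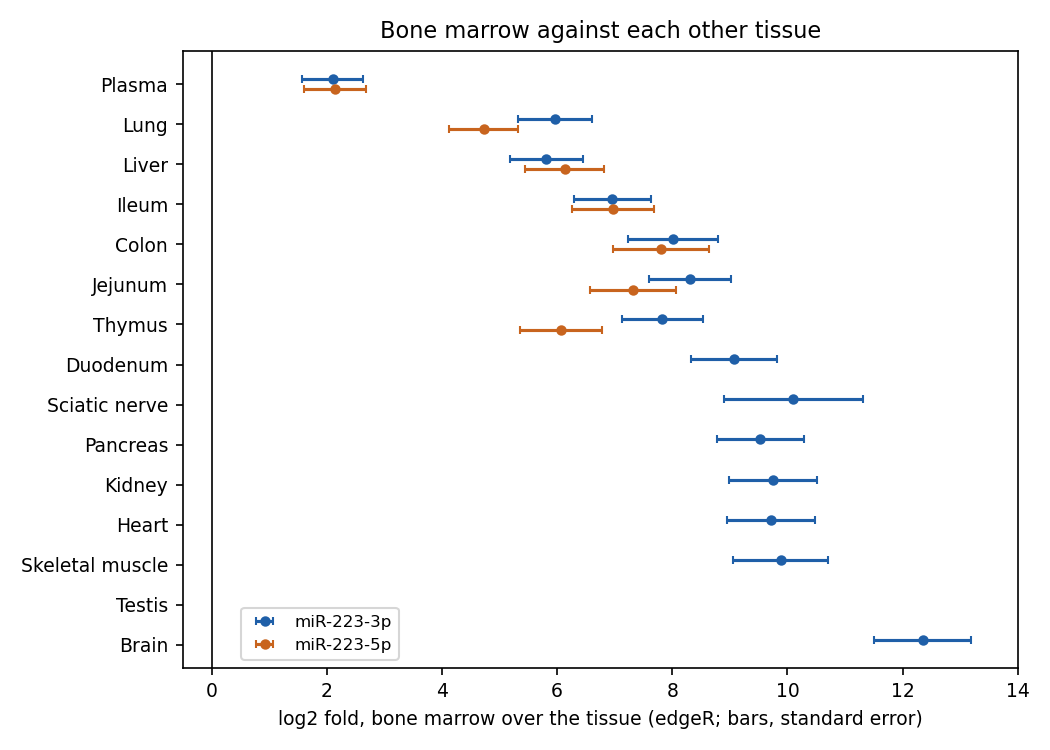
Log2 fold of bone marrow over each other tissue for both arms from the edgeR fit, with bars for the standard error; arms with 3 or fewer reads in a tissue are not drawn. Every value lies to the right of 0, the smallest being plasma at 2.10 for the 3p arm and 2.14 for the 5p arm.

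Bone marrow and plasma were set side by side because they were the only tissues with a 3p median above 100 RPM. The ratio of means was 8.02 for the 3p arm and 8.59 for the 5p arm, and without plasma replicate 2 it was 15.03 and 19.8. With edgeR, the adjusted p was 7.6e-04 and 8.3e-04, while 16.7% of miRNAs were called higher in bone marrow than in plasma and 26.5% lower. The size of this difference moved with the scaling. Without TMM factors the log2 fold changes were 3.0 and 3.01, without plasma replicate 2 they were 3.18 and 3.56, and without bone marrow replicate 5 they were 2.75 and 2.82, all with edgeR and all called. Without bone marrow replicate 1 the 5p value was 2.73.

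The makeup of the plasma reads moved with this result. The erythroid list (miR-144, miR-451 and miR-486, miRNAs of red cells and their precursors) took 545235 to 816358 RPM in plasma and 84257 to 146066 RPM in bone marrow. With those reads left out of the totals, the 3p arm measured 3036 to 6876 RPM in bone marrow and 634 to 3301 RPM in plasma. The groups then overlapped, and the ratio of means was 3.52 in place of 8.02 (p = 0.0159 in a two-sided exact permutation test). For the 5p arm the same step gave a ratio of 3.89 (p = 0.0238 in the exact permutation test), again with overlap. Without plasma replicate 2 these ratios were 5.50 and 7.32.

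Relative to the mean of all other tissues in the same edgeR fit, plasma was higher by a log2 fold change of 6.25 (SE 0.27, adjusted p = 1.6e-31) for the 3p arm and 5.33 (SE 0.35, adjusted p = 1.8e-19) for the 5p arm, where 27.9% of miRNAs were called higher. Lung was higher by 2.12 (SE 0.33, adjusted p = 3.8e-07) and 2.57 (SE 0.41, adjusted p = 1.1e-06), with 20.6% of miRNAs called higher. Liver was higher by 2.29 (SE 0.33, adjusted p = 2.6e-08) and 1.07 (SE 0.39, adjusted p = 0.0264), with 23.3% called higher, but the 5p arm did not pass in liver without TMM factors (adjusted p = 0.0738 with edgeR). In ileum the 3p arm was higher by 1.06 (SE 0.36, adjusted p = 0.0187 with edgeR), with 19.0% called higher, and the 5p arm did not pass (adjusted p = 0.269 with edgeR). The fitted 5p values of plasma, lung and liver, and the SE derived from them, depend on the prior count as well. Brain, kidney, pancreas and testis, with no 5p read, are among the tissues they were compared with. At the other end, the 3p arm was called lower than the mean of the other tissues in 7 tissues with edgeR. The log2 fold change was -4.68 in brain (SE 0.63, adjusted p = 7.6e-10), where 28.1% of miRNAs were called lower, and -4.22 in testis (SE 0.85, adjusted p = 2.2e-05), where 16.0% were. It was -2.29 in sciatic nerve, -2.05 in skeletal muscle, -1.92 in kidney, -1.88 in heart and -1.68 in pancreas (adjusted p of 0.0260 or less), where 14.4%, 16.5%, 10.2%, 17.3% and 19.2% of miRNAs were called lower. The values of testis, sciatic nerve, brain and skeletal muscle rest on 2, 7, 9 and 9 reads of the 3p arm. The size of these fitted differences is therefore uncertain. Without TMM factors the brain value was -3.71 and the kidney value -2.52, both still called, and sciatic nerve did not pass (adjusted p = 0.0956 with edgeR).

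The 3p arm made up most of the miR-223 reads. Over all libraries there were 9897 reads of the 3p arm and 309 of the 5p arm. The 3p arm had a read in 68 libraries and the 5p arm in 34, of which 15 had more than 3 reads. In bone marrow the 5p arm was 2.36%, 2.12%, 3.67%, 3.82% and 2.79% of miR-223 reads in replicates 1 to 5. In plasma it was 3.03%, 3.14%, 1.10%, 3.17% and 1.16%. In lung it was 5.26%, 5.88%, 8.08%, 4.55% and 5.36%, so that every lung library lay above every library of bone marrow and plasma. The pooled reads gave 2.94% in bone marrow (95% exact interval 2.45 to 3.50%), 2.81% in plasma (2.34 to 3.35%) and 6.54% in lung (4.45 to 9.20%). These intervals cover counting error only, and the lung share rests on 30 reads of the 5p arm, 16 of them in replicate 3. In libraries with at least 20 miR-223 reads, the pooled share was also 6.90% in thymus, 5.88% in jejunum and 5.56% in heart. Those shares rest on 6, 2 and 2 reads of the 5p arm. In duodenum, colon, ileum, liver and kidney it was 3.70%, 3.33%, 2.06%, 1.79% and 0%.

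**Figure D3:**
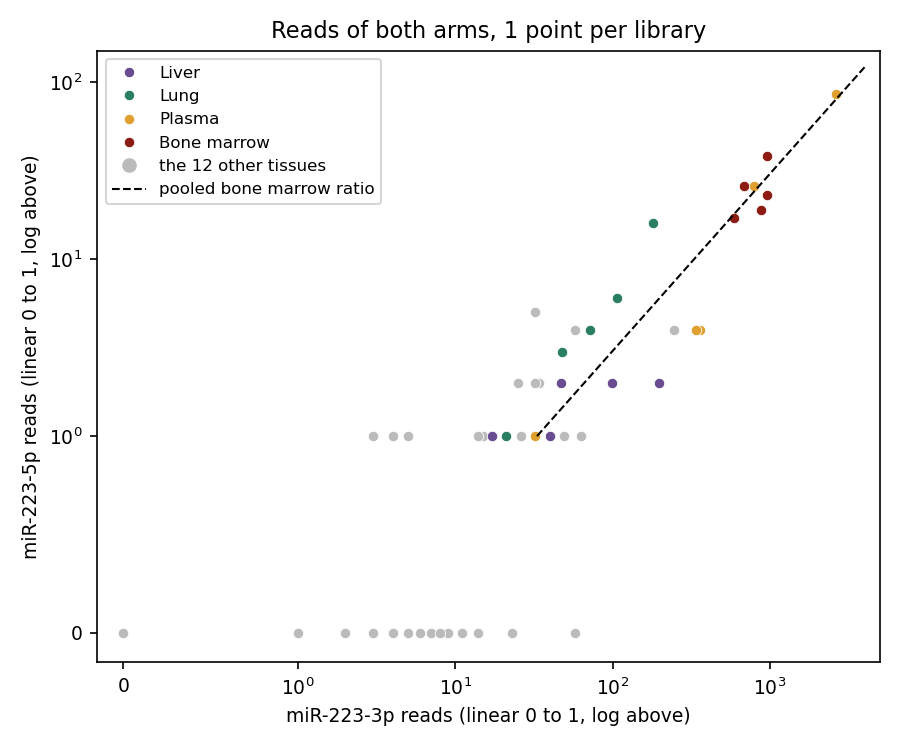
Reads of the 5p arm against reads of the 3p arm, 1 point per library, with both axes linear from 0 to 1 and logarithmic above; the dashed line is the ratio of the pooled bone marrow reads, 123 to 4064. The lung library with 182 reads of the 3p arm has 16 of the 5p arm and lies above the line.

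Across the 11 tissues with a library of at least 20 miR-223 reads (30 libraries), tissue accounted for 41.9% of the variance of the log2 ratio of the arms, and the differences among tissues did not pass a permutation test of the tissue labels (p = 0.261). Only bone marrow, plasma and lung had 5 such libraries, and these 3 pairs were compared. The mean log2 ratio of 3p to 5p reads, with 0.5 added to each, was 5.05 ± 0.38 in bone marrow, 5.37 ± 0.86 in plasma and 3.83 ± 0.23 in lung (SD, n = 5 each). Lung was lower than bone marrow by 1.22 and lower than plasma by 1.54 (adjusted p = 0.0119 for each, two-sided exact permutation test over 3 pairs), and bone marrow and plasma differed by 0.32 (adjusted p = 0.444, exact permutation test). Taken as a plain share with nothing added, the lung differences had the same exact permutation p of 0.00794. In the tissues with no 5p read, 84 reads of the 3p arm were found in all over the 4 tissues, for which the bone marrow ratio would give 2.54 reads of the 5p arm together and 0.0605 to 1.33 in a single tissue, beside the 0 found.

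**Figure D4:**
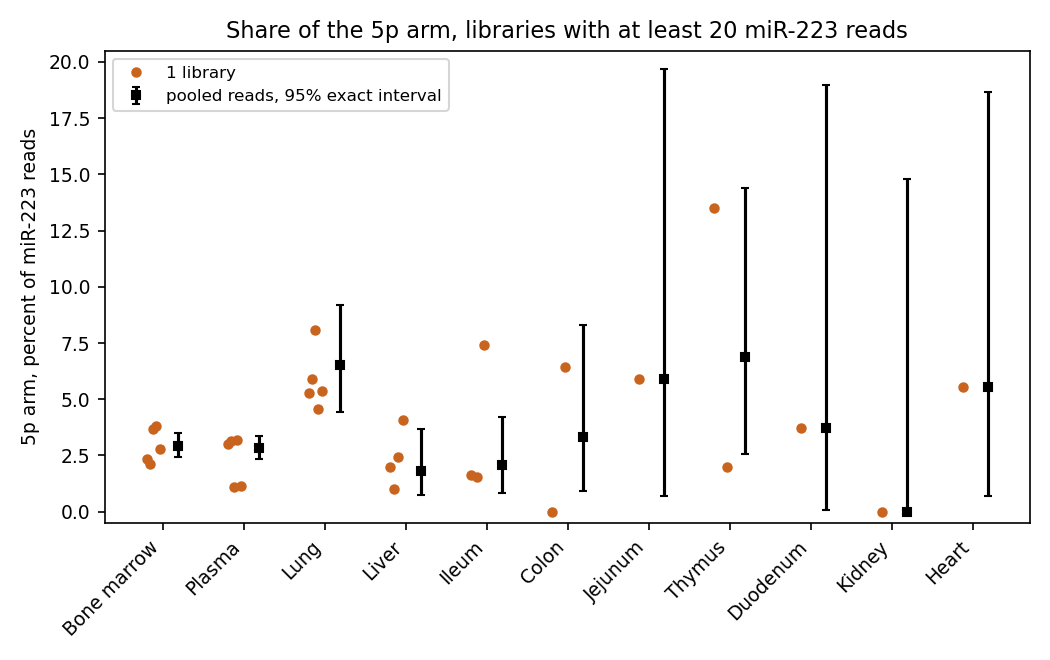
Share of the 5p arm among miR-223 reads in percent, for libraries with at least 20 such reads; orange points are single libraries and black squares the pooled reads of those libraries with 95% exact intervals. The lung libraries lie between 4.55% and 8.08%, above the 2.12% to 3.82% of bone marrow, and the tissues drawn with 1 or 2 libraries have the widest intervals.

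Other leukocyte miRNAs gave a different picture of the tissues. The list held every arm of miR-142, a miRNA of all blood cell lineages, miR-146a, miR-146b and miR-155, which are induced in activated immune cells, miR-150, a miRNA of mature lymphocytes, and miR-342, 9 miRNAs in all. Of the 8 tested, 4 were called higher in bone marrow than in the mean of the other tissues with edgeR and none lower: hsa-miR-142-3p by a log2 fold change of 3.0 (SE 0.43), cfa-miR-142 by 2.85 (SE 0.33), cfa-miR-146a by 2.52 (SE 0.29) and cfa-miR-155 by 1.02 (SE 0.33). The median log2 fold change of the 8 was 0.81, beside -0.97 for all miRNAs tested. Of all miRNAs tested, 16.5% were called higher in this comparison and 24.6% lower. All 4 erythroid miRNAs were called higher in bone marrow, with a median of 3.57. The log2 fold change of the 3p arm of miR-223 in this comparison, 8.49, was above that of each of these 12 miRNAs. Of the erythroid list, cfa-miR-486 was not particular to blood samples. Its median was 65253 RPM in bone marrow, below the 113425 RPM of heart, 79475 RPM of skeletal muscle and 76059.5 RPM of sciatic nerve. The rest of that list had a median above bone marrow in plasma only.

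Against plasma the lists split. With edgeR, cfa-miR-146a (3.05), cfa-miR-146b (2.80) and cfa-miR-155 (2.08) were higher in bone marrow by these log2 fold changes, as both arms of miR-223 were, whereas cfa-miR-142 fell by 2.06 and cfa-miR-150 fell by 2.84 on the log2 scale. The other 3 tested leukocyte miRNAs did not pass. Of the 4 erythroid miRNAs, 3 were called lower in bone marrow than in plasma and hsa-miR-144-5p did not pass (adjusted p = 0.103 with edgeR). Among all miRNAs tested, 16.7% were called higher in bone marrow than in plasma and 26.5% lower.

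The summed leukocyte list was 15183 to 24731 RPM in bone marrow, 13461 to 39326 RPM in plasma and 10319 to 27903 RPM in ileum, so that these tissues overlapped. The level of the 3p arm relative to this sum differed between them. As a percentage of the summed list, it was 14.5 to 24.2% in bone marrow, 0.865 to 3.82% in plasma, 0.380 to 1.74% in lung, 0.564 to 1.60% in liver and 0.0545 to 0.153% in ileum. Relative to cfa-miR-142 alone, its median was 33.3% in bone marrow, 4.01% in lung, 1.29% in liver, 1.16% in plasma and 0.209% in ileum. Thymus replicates 1 and 4, with a leukocyte sum near that of bone marrow, held 40.0 and 14.3 RPM of the 3p arm. Members of the list were also high in other tissues. The median of cfa-miR-146b was 5983 RPM in testis and 2406 RPM in brain, beside 259 RPM in bone marrow. That of cfa-miR-342 was 936 RPM in brain and 130 RPM in bone marrow. The median of the sum was 6696 RPM in testis, above the 5371 RPM of lung, so the sum is not a measure of leukocytes alone. In bulk tissue, fewer cells of a type and less RNA per cell cannot be told apart.

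**Figure D5:**
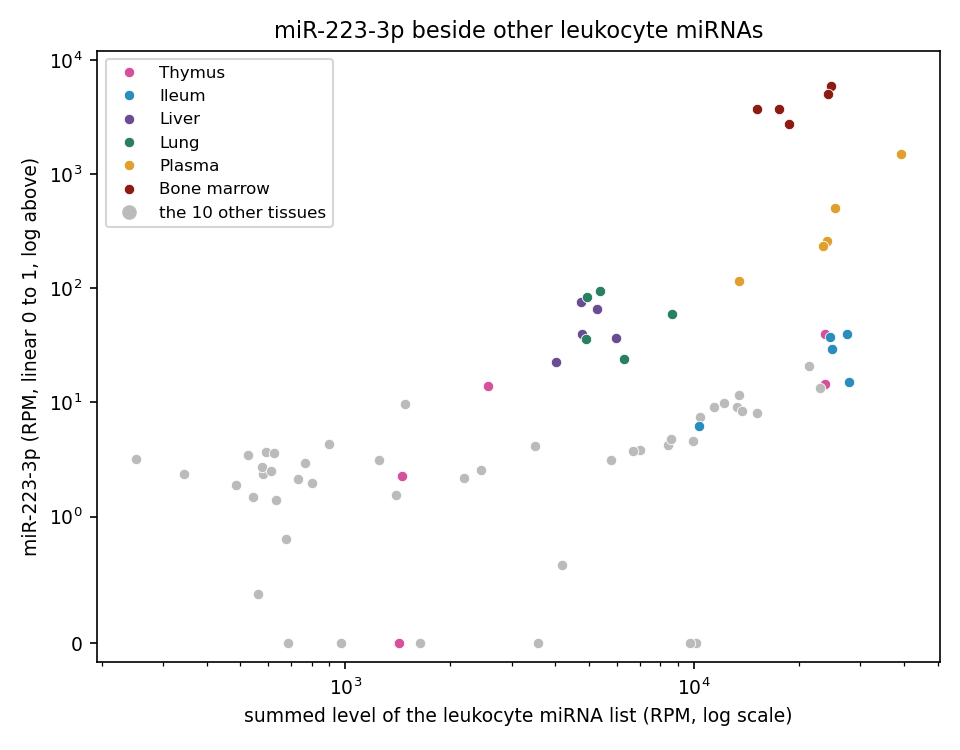
Level of the 3p arm of miR-223 (RPM, linear from 0 to 1 and logarithmic above) against the summed level of 9 leukocyte miRNAs (RPM, log scale), 1 point per library. The sum is 13461 to 39326 RPM in plasma and 10319 to 27903 RPM in ileum. Both ranges overlap the 15183 to 24731 RPM of bone marrow, but most of the plasma and ileum libraries lie outside it. The 3p medians over all libraries of bone marrow, plasma and ileum are 3686, 259 and 29.2 RPM.

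Within plasma, the 5 libraries had the same order by the 3p arm and by the leukocyte sum. Replicate 2 was highest at 39326 RPM of the sum and replicate 1 lowest at 13461 RPM. Most of that sum was cfa-miR-142, with 34644 and 12752 RPM there. Of the list, cfa-miR-142, cfa-miR-150 and cfa-miR-342 had the order of the 3p arm. cfa-miR-155 and hsa-miR-142-3p had the same highest and lowest library but another order. cfa-miR-146a was highest in replicate 5, and cfa-miR-146b was highest in replicate 1 and lowest in replicate 2 (21.8 and 8.49 RPM). hsa-miR-342-5p and rno-miR-146b-3p, with few reads, did not follow it. The erythroid miRNAs did not move together either. cfa-miR-486 ran in the reverse order, from 423281 RPM in replicate 2 to 760806 RPM in replicate 1, and it made up 77.6 to 93.2% of the erythroid sum in plasma. The other 3 were highest in replicate 2 and lowest in replicate 1, as the 3p arm was, with cfa-miR-451 at 116508 and 52993 RPM. Among these, hsa-miR-144-5p had the full order of the 3p arm. RPM is a share of a fixed total, so a larger share of cfa-miR-486 leaves less for the other miRNAs. Without the erythroid list in the totals, the 3p arm still ran from 3301 RPM in replicate 2 to 634 RPM in replicate 1. Replicate 2 was also the deepest plasma library with 1765863 reads, and replicate 1 the shallowest with 274790. The part of the fixed total or of depth in these orders was not tested. The part of blood cells or their RNA in the plasma values was not tested. In lung, liver and heart the median of cfa-miR-451 was 5215, 6236 and 2029 RPM, and the part of remaining blood in the miR-223 level of these tissues was not tested either.

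The patterns most like each arm were sought by Spearman's rho over the 16 tissue medians, among the 264 other miRNAs with a tissue median above 100 RPM. For the 3p arm these were cfa-miR-25 (rho = 0.85), cfa-miR-93 (0.81), hsa-miR-106b-3p (0.81), cfa-miR-142 (0.80) and cfa-miR-652 (0.74). For the 5p arm they were cfa-miR-25 (0.90), hsa-miR-106b-3p (0.82), cfa-miR-93 (0.78), cfa-miR-16 (0.76) and cfa-miR-103 (0.71). The measure compares ranks and not levels. cfa-miR-25, cfa-miR-93 and hsa-miR-106b-3p, which come from 1 precursor cluster, had their highest median in plasma, and the bone marrow median of cfa-miR-25, 5680 RPM, was 5.10-fold its lowest tissue median. For cfa-miR-142 the bone marrow median was 75.8-fold its lowest tissue median. For the 5p arm, 8 of the 16 tissue medians were tied at 0. The arms themselves had a rho of 0.89 with each other over the 16 medians. The points share libraries, depth and the same total of reads per library, and these values are given without a test.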

How the data were processed

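The authors clipped adaptors, aligned the reads with OSA v4 to CanFam3.1 without mismatches, dropped reads at more than 10 locations and counted reads overlapping at least 70% of a miRNA locus of miRBase v21. They deposited counts, the total of miRNA reads per sample and RPM, a normalized signal equal to the counts over that total. RPM recomputed from the deposited counts differed by at most 2.89e-09 as a relative difference. Absent rows were set to 0. Of 77 labelled samples, 1 colon sample without values was not used, nor was 1 sample name that matched no label. Counts were tested with edgeR 4.0.16's quasi-likelihood test (TMM scaling, filterByExpr) over all 16 tissues. The SE is the size of the log2 fold change over the square root of F. Levels were tested by exact permutation and rank-sum tests. Scripts were tested on simulated data. Named were both arms, the 5 miRNAs of highest rho and the leukocyte and erythroid lists, all chosen with earlier results of these data known. A read matching several loci can count for each, which counts cannot resolve. The tissues came from 5 dogs by the study's methods, so libraries of different tissues share dogs, but the tests treat each library as independent. The labels name no dog, so p-values measure only the spread between these samples. Mature miRNA sequences were not used here.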

Additional observations from a re-analysis of the deposited data

Results flagged for a closer look

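In 8 of 26 tissue groups of 4 or 5 libraries, 1 library stood apart from the others by Dixon's criterion (about 1 in 20 groups of normally distributed values meet it by chance). In 4 of the 8 only 1 library held any read, which meets the criterion by construction, so the count of 8 cannot be read against that rate. For the 3p arm these were plasma, where replicate 2 held 1501 RPM and the next library 507 RPM, and jejunum, where 1 library held 20.9 RPM and the next 8.42 RPM. For the 5p arm all rest on 5 reads or fewer. The highest libraries were thymus replicate 1 at 6.25 RPM, from 5 reads, and 1 library of ileum at 2.33 RPM. In colon, duodenum, heart and skeletal muscle only 1 library each held the 5p arm, at 0.929, 0.311, 0.253 and 0.586 RPM. The thymus library was also 1 of the 2 thymus libraries with a high leukocyte sum, and what part other cells had in its value was not tested.

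The ratio of the arms differed between lung and the samples with the most miR-223, by the test of the difference itself. The log2 ratio of 3p to 5p was higher in bone marrow than in lung by 1.22, and the value of lung minus plasma was -1.54 (adjusted p = 0.0119 for each, exact permutation test over 3 pairs). With any single library of either group left out, the difference of lung from bone marrow ranged from -1.32 to -1.11 and that from plasma from -1.77 to -1.30, each with p = 0.0159 in the exact permutation test, the smallest it can give there. Lung had 1 to 16 reads of the 5p arm per library, and the part of depth in this difference was not tested.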

How the results depend on the processing

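Of 182 recomputed values, 164 kept their direction, their side of the threshold or a value near the first. These include 5p folds in plasma and lung that kept their direction but no longer passed the rank-sum test, as given above. They also include the share of arm-ratio variance between tissues, which fell from 41.9% to 4.67% in thinned libraries, where 10 libraries of 2 tissues remained. With medians in place of means, the 3p fold was 60.2 in plasma and 13.9 in lung. Without bone marrow and plasma among the others, the 3p and 5p folds were 37.5 and 23.7 in plasma and 5.80 and 11.0 in lung. With geometric means, the 3p fold was 33.6 in plasma and the folds in lung were 4.46 (3p) and 2.24 (5p). Leaving out single plasma samples moved the plasma fold from 0.905 to 2.02 (3p) and from 0.674 to 1.87 (5p), in both cases lowest without replicate 2. With plasma left out, the bone marrow median-over-maximum ratio was 39.4 (3p) and 17.1 (5p). Counting every library with at least 1 miR-223 read (68 libraries) raised the share of arm-ratio variance between tissues to 61.3% (p = 1e-05, the smallest the permutations can give), where most values rest on a few reads. Of the 5 miRNAs most like the 3p arm, 1 stayed by Pearson's r of log2 means and 2 by rho over samples, and for the 5p arm 1 stayed by Pearson's r and 3 among all detected miRNAs. Bone marrow against the other tissues stayed called in every edgeR and DESeq2 setting, at 8.39 to 9.10 (3p) and 7.65 to 8.25 (5p) with a bone marrow sample left out, and against plasma at 1.90 to 3.18 and 1.91 to 3.56. TMM scaling moved the median log2 fold change of all miRNAs by 0.32 against the other tissues and by 0.20 against plasma. Relative to that median, the 3p arm was higher by 9.46 with TMM and 9.66 without it against the other tissues, and by 2.30 and 3.0 against plasma. No neighbouring pair in the order of tissues passed after adjustment under either scaling. No paired analysis was possible because the labels give neither a dog nor a replicate number, and the order of the samples was not used to pair them. The erythroid reads left out of the totals, another scaling for the order of tissues and for the other tissues in edgeR, the testis ratio without replicate 3, the arm-ratio settings without plasma or a single library and the bone marrow fold without plasma replicate 2 were added after the data were seen. Depth limits the 5p arm most, with no read in 42 of 76 libraries.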
